A study of Arabidopsis thaliana with 6 samples.

Results

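The 8 genes described here make up the thalianol and marneral gene clusters of Arabidopsis thaliana, out of 26726 genes measured in root explants that were regenerating shoots. The thalianol cluster holds 5 of them: THAS1 (AT5G48010), CYP708A2 (AT5G48000), CYP705A5 (AT5G47990), AT5G47980 and AT5G47950. The marneral cluster holds the other 3, which are MRN1 (AT5G42600), CYP71A16 (AT5G42590) and CYP705A12 (AT5G42580). The genes were chosen by identifier after AT5G47980 had been seen among the strongest differences between the libraries labelled arr1 and WT. Differences in that contrast are therefore descriptions of the choice and carry no test.

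RNA was sequenced from 3 genotypes with 2 libraries each, numbered replicate 1 and replicate 2: Pro35SARR1, arr1 and wild type (WT). ARR1 encodes a type-B response regulator, which binds DNA and turns on genes in answer to cytokinin. In Pro35SARR1 the label places ARR1 behind the 35S promoter, a viral promoter active in most plant tissues. No further allele, no ecotype and no number of independent lines is given in the labels, and no genotype is said to carry another transgene. Explants of every genotype spent 5 days on a callus-inducing medium and then 7 days on a shoot-inducing medium with the cytokinin isopentenyladenine (1 mg/L) and the auxin IAA (0.15 mg/L), in continuous light at 22 °C. The labels do not say whether the 2 libraries of a genotype stem from different cultures. The spread behind every p-value is thus that between libraries and may be technical. Library totals ran from 8193313 to 9381532 estimated counts, behind which lay 8011865 to 9999608 sequenced fragments.

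ARR1 itself had 679 and 775 FPKM (fragments per kilobase of transcript, scaled to a common library size) in Pro35SARR1. It had 24.7 and 24.2 FPKM in the libraries labelled arr1, against 25.7 and 24.9 FPKM in WT. The targeted gene's transcript thus stood far above WT in Pro35SARR1, and it did not set the libraries labelled arr1 apart from WT. Every direction given below for those libraries rests on their label.

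Triterpenes are made from oxidosqualene, which an oxidosqualene cyclase folds into a ring skeleton that other enzymes then decorate. In plants the genes for one such pathway can lie side by side on a chromosome, and the thalianol and marneral clusters are the best known examples in Arabidopsis. Both are known as pathways of the root, and thalianol-derived compounds are known to shape the bacteria that colonise it. THAS1 makes thalianol, CYP708A2 hydroxylates it and CYP705A5 introduces a further double bond. AT5G47980 and AT5G47950 are annotated by RefSeq as acyl-transferases of the HXXXD type, a class that attaches acyl groups to plant metabolites. MRN1 makes marneral, CYP71A16 oxidises marneral and its alcohol, and CYP705A12 is the second cytochrome P450 of that cluster.

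Both clusters lie on chromosome 5. In the deposited coordinates, whose build is not given in the sources used here, the marneral cluster spans positions 17023646 to 17058245 (34.6 kb) and the thalianol cluster positions 19417031 to 19461689 (44.66 kb). The gap between them is 2.36 Mb. THAS1, CYP705A5 and AT5G47980 are on the plus strand, and CYP708A2 and AT5G47950 on the minus strand. RABA4C and AT5G47970 lie between AT5G47950 and the other thalianol genes. The long noncoding RNA of the marneral cluster, AT5G00580, is not among the genes measured here.

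Of the 5 thalianol genes, THAS1, CYP708A2, CYP705A5 and AT5G47980 had the same order of genotypes and AT5G47950 overlapped with WT in both comparisons, so the stretches just upstream of them are shown side by side. Each is the 250 bases before the gene start in RefSeq TAIR10.1, 5′ to 3′ on the gene's strand, at chr5:19456587-19456836 (plus) for THAS1, chr5:19447867-19448116 (minus) for CYP708A2, chr5:19434508-19434757 (plus) for CYP705A5, chr5:19428638-19428887 (plus) for AT5G47980 and chr5:19418658-19418907 (minus) for AT5G47950. Capitals mark AGATT or AGATC on either strand (AATCT or GATCT where the match is on the other strand). Both are forms of the short core bound by type-B response regulators. Forms of that core with another first base were neither marked nor counted.
THAS1: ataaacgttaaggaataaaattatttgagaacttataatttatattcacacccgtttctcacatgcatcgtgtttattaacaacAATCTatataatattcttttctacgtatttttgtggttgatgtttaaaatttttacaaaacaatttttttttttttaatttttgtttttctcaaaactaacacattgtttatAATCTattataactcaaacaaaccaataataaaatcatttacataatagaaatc
CYP708A2: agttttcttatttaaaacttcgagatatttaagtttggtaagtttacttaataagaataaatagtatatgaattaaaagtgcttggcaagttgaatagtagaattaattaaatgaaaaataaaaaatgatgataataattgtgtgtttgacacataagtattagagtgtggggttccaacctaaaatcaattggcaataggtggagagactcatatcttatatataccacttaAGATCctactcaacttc
CYP705A5: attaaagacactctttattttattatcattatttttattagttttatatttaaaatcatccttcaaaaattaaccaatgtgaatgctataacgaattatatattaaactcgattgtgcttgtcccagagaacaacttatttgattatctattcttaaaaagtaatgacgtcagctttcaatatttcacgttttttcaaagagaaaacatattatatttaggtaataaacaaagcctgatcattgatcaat
AT5G47980: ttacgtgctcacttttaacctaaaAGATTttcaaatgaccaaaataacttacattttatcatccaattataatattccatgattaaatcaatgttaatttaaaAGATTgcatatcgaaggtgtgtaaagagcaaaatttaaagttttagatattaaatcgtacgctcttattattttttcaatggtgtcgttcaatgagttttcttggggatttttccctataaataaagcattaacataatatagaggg
AT5G47950: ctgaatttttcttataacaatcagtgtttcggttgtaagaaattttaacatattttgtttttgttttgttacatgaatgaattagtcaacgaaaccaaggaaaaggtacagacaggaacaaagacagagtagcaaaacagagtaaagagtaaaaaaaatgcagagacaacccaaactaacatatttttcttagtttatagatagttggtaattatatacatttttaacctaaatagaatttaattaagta
AGATT occurred in the 250 bases of 3 of the 8 genes (2 matches each in AT5G47980 and THAS1, and 1 in MRN1), while 63.7% of 27443 Arabidopsis promoters of the same length hold it. AGATC occurred in 1 of 8, CYP708A2, against 26.6% of all promoters. The longer motif AGATACG was in none of the 8 and in 1.69% of all promoters. No match overlapped another, and these matches describe the letters in this window only. The 8 windows were rich in A and T, with a GC content between 20.8% for THAS1 and 31.6% for CYP71A16, against a median of 31.2% over all promoters.

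**Figure D1:**
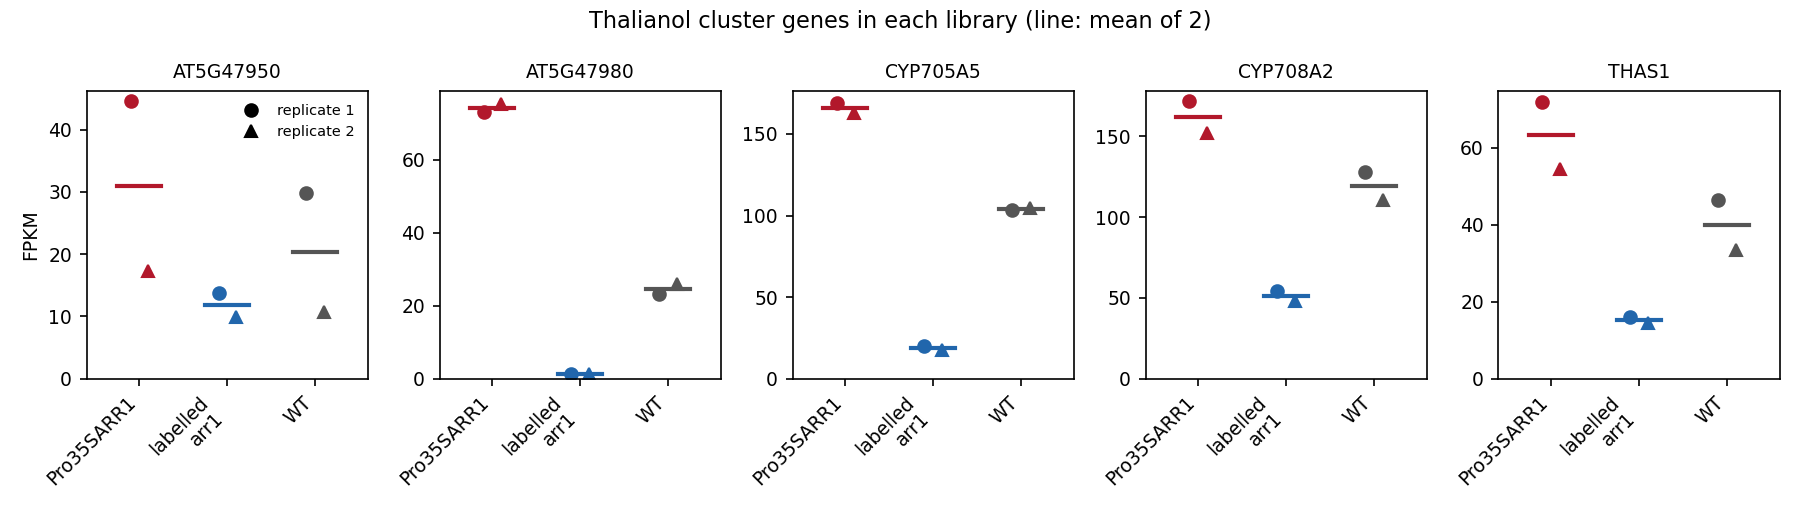
FPKM of the 5 thalianol cluster genes in each of the 6 libraries, with circles for replicate 1, triangles for replicate 2 and a line at the mean of 2. For THAS1, CYP708A2, CYP705A5 and AT5G47980 both Pro35SARR1 libraries sit above both WT libraries and both libraries labelled arr1 sit below them, whereas the libraries of AT5G47950 overlap between Pro35SARR1 and WT and between the libraries labelled arr1 and WT.

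The first question was how the pathway genes stood in Pro35SARR1 relative to WT. Of the 6 members with enough counts to test, 1 was called higher in Pro35SARR1 and none lower, at a Benjamini-Hochberg adjusted p under 0.05 in the edgeR quasi-likelihood test. Over all 18083 genes tested, 0.0885% were called higher in this comparison. The WT libraries also entered the contrast that chose the members, so these p-values are not independent of the choice. Libraries that share a replicate number shared deviations too, and with that number as a block 4 members were called higher, against 1.18% of all genes. DESeq2 called 2, against 1.09% of all genes, and at an unadjusted edgeR p under 0.05 there were 4 higher and 0 lower members, against 4.92% and 4.82% of all genes.

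AT5G47980 was the member called. It had 73.2 and 75.3 FPKM in Pro35SARR1, against 23.1 and 25.9 FPKM in WT. The 2 genotypes did not overlap, and the difference was far larger than the spread within either. It was 3.03-fold higher in Pro35SARR1 (log2 fold change 1.60, SE 0.11, edgeR adjusted p 0.0229; 0.00751 with the block). The fold was stable when any 1 of the 6 libraries was left out (1.52 to 1.68 on the log2 scale), but the edgeR adjusted p was then 0.104 to 0.174, so the call rests on having all 6.

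Among the oxidative enzymes, CYP705A5 had 169 and 163 FPKM in Pro35SARR1 and 103 and 105 FPKM in WT. CYP708A2, which acts directly after the synthase, had 172 and 152 FPKM in Pro35SARR1 and 128 and 111 FPKM in WT. Both were among the more abundant transcripts of the explants, CYP708A2 ranking 946 and 1178 of 26726 genes in the 2 Pro35SARR1 libraries. Neither passed the edgeR test without the block. The log2 fold change of Pro35SARR1 over WT was 0.68 for CYP705A5 (SE 0.11, edgeR adjusted p 0.166; 0.0326 with the block) and 0.45 for CYP708A2 (SE 0.13, edgeR adjusted p 0.372; 0.0466 with the block). DESeq2 gave CYP705A5 an adjusted p of 0.000525.

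THAS1, the synthase that opens the pathway, had 72.1 and 54.5 FPKM in Pro35SARR1, against 46.4 and 33.5 FPKM in WT. The libraries did not overlap, with replicate 1 above replicate 2 in both genotypes. The log2 fold change was 0.67 (SE 0.21, edgeR adjusted p 0.392; 0.0441 with the block). The synthase and both P450s of the cluster therefore stood 1.37-fold to 1.60-fold above WT in these libraries, differences that passed the threshold with the replicate block and, for CYP705A5, in DESeq2, and in none of the other fits run.

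AT5G47950, the outermost member, had 44.5 and 17.2 FPKM in Pro35SARR1, against 29.8 and 10.7 FPKM in WT. The genotypes overlapped, and its log2 fold change of 0.62 (SE 0.61) did not pass the test (edgeR adjusted p 0.810; 0.249 with the block). Without Pro35SARR1 replicate 1 the estimate was -0.25. By FPKM, both libraries of Pro35SARR1 lay above both of WT for 4 of the 8 members, all of them thalianol genes. Of the 8, 6 were tested, and by scaled counts 18.6% of all genes tested lay so.

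The libraries labelled arr1 lay on the other side of WT. AT5G47980 had 1.36 and 1.31 FPKM in the libraries labelled arr1, against 23.1 and 25.9 FPKM in WT. That is 17.9-fold lower (log2 fold change -4.16, SE 0.14), from 17.76 and 17.09 estimated counts in the libraries labelled arr1. CYP705A5 had 20.2 and 17.4 FPKM in the libraries labelled arr1, against 103 and 105 FPKM in WT, a log2 fold change of -2.44 (SE 0.12). The place of AT5G47980 among all genes differed in the same way, with 91.23% of genes lower than it in Pro35SARR1 replicate 1 and 35.61% lower than it in labelled arr1 replicate 2.

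CYP708A2 and THAS1 were lower by less. CYP708A2 had 54.3 and 47.9 FPKM in the libraries labelled arr1 and 128 and 111 FPKM in WT (log2 fold change -1.20, SE 0.14). THAS1 had 15.9 and 14.6 FPKM in the libraries labelled arr1 and 46.4 and 33.5 FPKM in WT (log2 fold change -1.37, SE 0.22). For AT5G47950 the values were 13.8 and 9.87 FPKM in the libraries labelled arr1 and 29.8 and 10.7 FPKM in WT, which overlap (log2 fold change -0.75, SE 0.63). Its estimate was 0.16 without WT replicate 1, so the sign rests on that library.

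Of the 6 members tested, 4 were called lower in the libraries labelled arr1 by edgeR, with or without the block, and 1.9% of all genes were called lower (9.51% with the block). By FPKM, both libraries labelled arr1 lay below both of WT for 7 of the 8 members. These include MRN1 and CYP705A12, which had too few counts to test. By scaled counts the same held for 27.2% of all genes tested. Because the choice of members used this contrast, nothing is read from the count of members. With 1 library of WT or of Pro35SARR1 left out 2 members were called, and with either library labelled arr1 left out 0 were, the log2 fold changes of AT5G47980 staying between -4.25 and -4.09. The authors' deposited table of this contrast lists the same 4 genes among its 437, with log2 fold changes of -4.23 for AT5G47980, -2.47 for CYP705A5, -1.22 for CYP708A2 and -1.39 for THAS1. It does not list AT5G47950 or a marneral gene.

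Set directly against the libraries labelled arr1, Pro35SARR1 was 54.2-fold higher in AT5G47980 (log2 fold change 5.76, SE 0.14) and 8.69-fold higher in CYP705A5 (3.12, SE 0.12). The ratio was 4.10-fold for THAS1 (log2 fold change 2.04, SE 0.22) and 3.15-fold for CYP708A2 (1.65, SE 0.14). AT5G47950 had 44.5 and 17.2 FPKM in Pro35SARR1 and 13.8 and 9.87 FPKM in the libraries labelled arr1, which did not overlap (log2 fold change 1.37, SE 0.63). This comparison shares its libraries with the others, so these values follow from the ones above. By edgeR 4 members were called higher and 5 with the block, against 4.09% and 11.5% of all genes. By FPKM, both libraries of Pro35SARR1 lay above both labelled arr1 for 7 of the 8 members, among them CYP705A12, which was not tested. By scaled counts the same held for 28.7% of all genes tested, and again nothing is read from the counts.

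**Figure D2:**
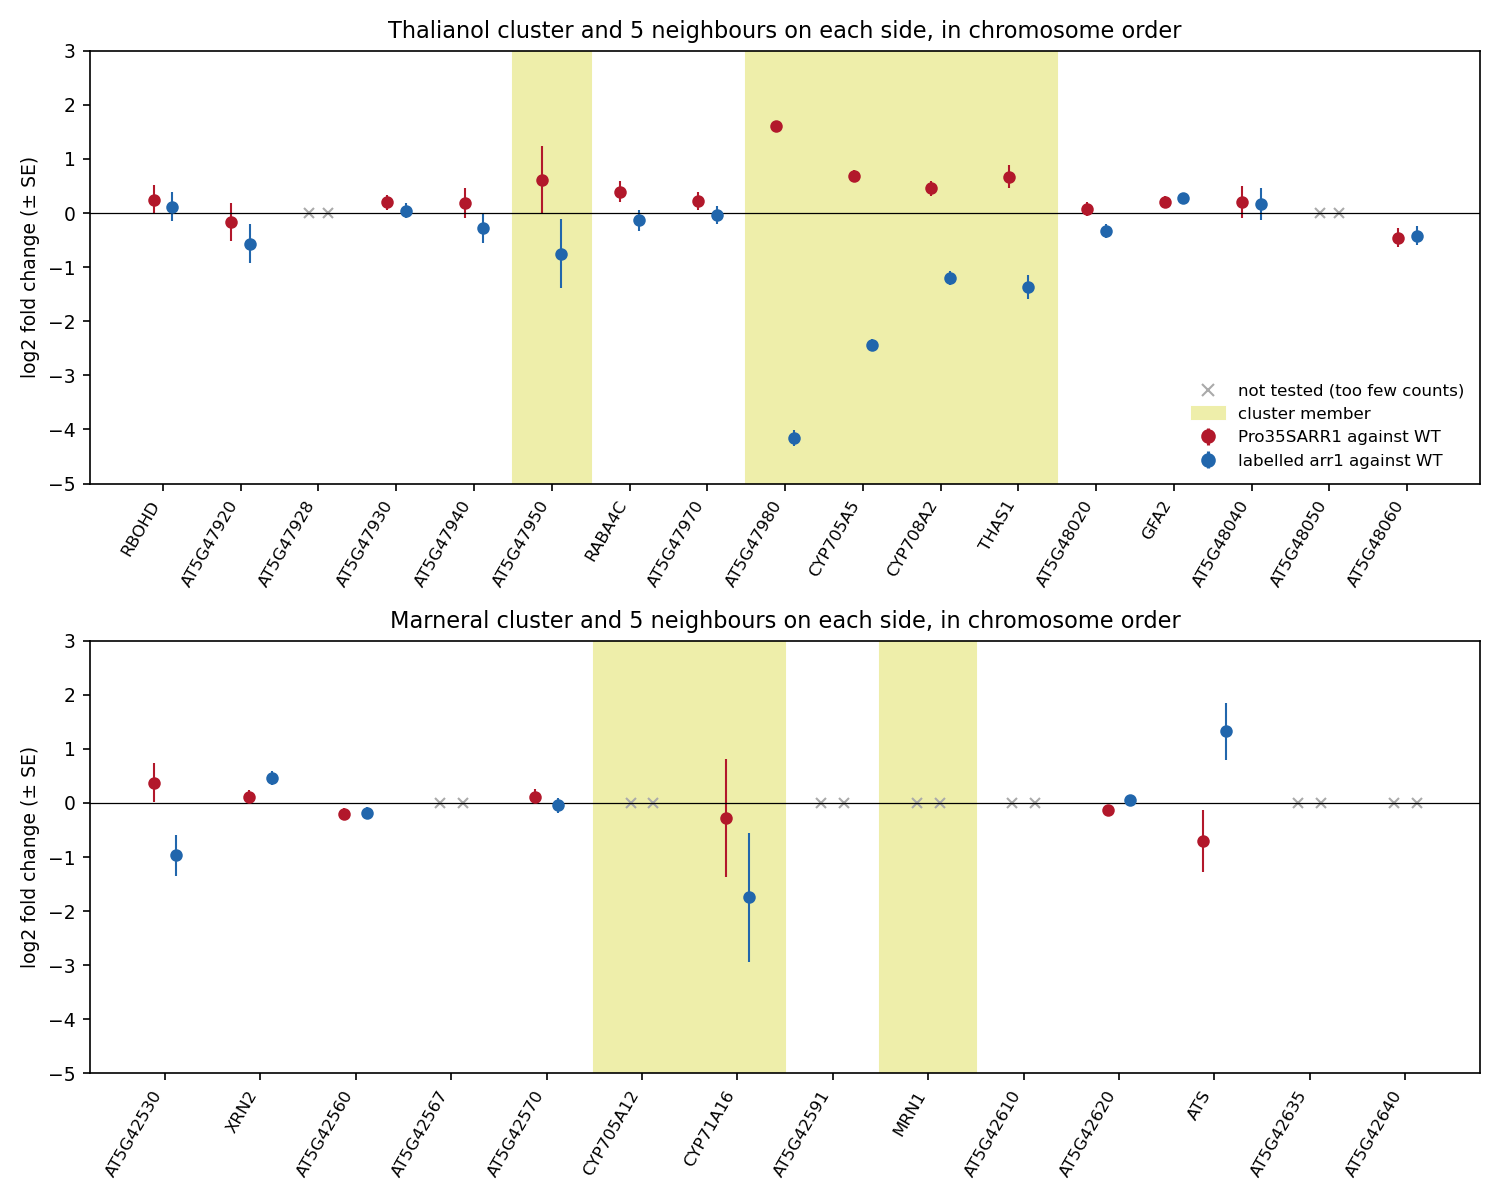
Log2 fold change (± SE, edgeR) of Pro35SARR1 against WT and of the libraries labelled arr1 against WT, for the members (shaded) and their neighbours in chromosome order; crosses at 0 mark genes with too few counts to test. The 4 adjacent thalianol genes from AT5G47980 to THAS1 stand between 0.45 and 1.60 in Pro35SARR1 and between -4.16 and -1.20 in the libraries labelled arr1, while the tested neighbours of the thalianol cluster lie between -0.56 and 0.40.

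By FPKM, the order labelled arr1 below WT below Pro35SARR1, with no overlap between genotypes, held for 4 of the 8 members, of which 6 were tested. These 4 are the adjacent genes AT5G47980, CYP705A5, CYP708A2 and THAS1. By scaled counts the order held for 4.86% of the 18083 genes tested (879). Because the choice of members used the contrast of the libraries labelled arr1 with WT, nothing is read from the count of members. Within this order the genes differed in size. AT5G47980 had the widest span between genotypes and CYP708A2 the narrowest, and in both comparisons with WT CYP705A5 lay between them.

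The make-up of the cluster's transcripts differed as well. The summed FPKM of the 5 thalianol genes was 531 and 462 in Pro35SARR1, 105.5 and 90.98 in the libraries labelled arr1, and 331 and 286 in WT. AT5G47980 made up 13.8% and 16.3% of that sum in Pro35SARR1, 1.29% and 1.44% in the libraries labelled arr1, and 6.98% and 9.07% in WT. CYP708A2 made up 32.4% and 33.0% in Pro35SARR1, 51.4% and 52.6% in the libraries labelled arr1, and 38.8% in both WT libraries. AT5G47950, the other acyl-transferase, made up 8.38% and 3.73% in Pro35SARR1, 13.1% and 10.8% in the libraries labelled arr1, and 9.01% and 3.75% in WT. Where the sum was lowest, the shares of CYP708A2 and AT5G47950 were thus at their highest and that of AT5G47980 at its lowest.

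CYP705A5 took 31.8% and 35.2% of the sum in Pro35SARR1, 19.2% and 19.1% in the libraries labelled arr1, and 31.2% and 36.7% in WT. THAS1 took 13.6% and 11.8% in Pro35SARR1, 15.1% and 16.0% in the libraries labelled arr1, and 14.0% and 11.7% in WT. These shares are descriptions of the same values and were not tested.

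**Figure D3:**
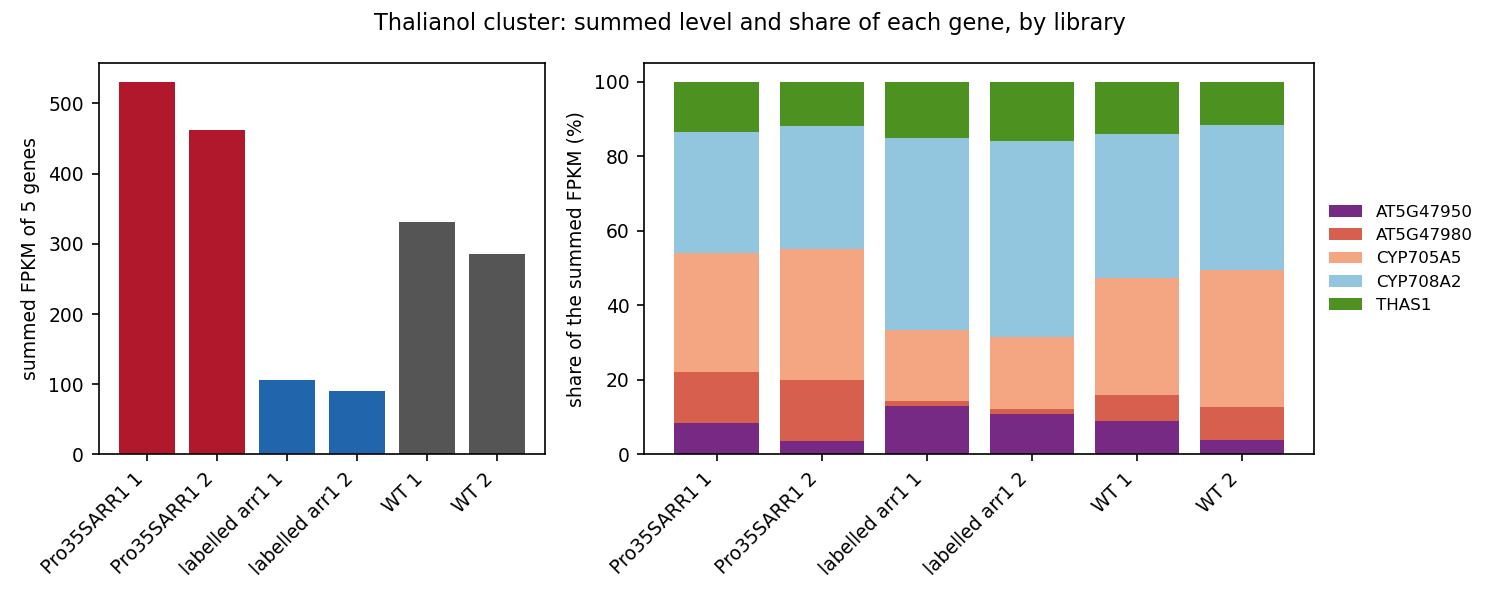
Left, summed FPKM of the 5 thalianol genes in each library; right, the share of each gene in that sum (%). The sum is lowest in the libraries labelled arr1 (105.5 and 90.98), where AT5G47980 takes 1.29% and 1.44% and CYP708A2 51.4% and 52.6%.

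Isoforms added little. CYP708A2 has 5 in the deposited table, and isoform AT5G48000.3 carried most of the estimated count, with 84.1% and 76.6% in Pro35SARR1, 85.2% and 85.5% in the libraries labelled arr1, and 85.5% and 86.1% in WT. Of the 2 isoforms of THAS1, all of the count was assigned to AT5G48010.2, and the other was at 0 in all 6 libraries. The remaining members have 1 isoform each.

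The members resemble one another and other genes of their families. The coding sequences of THAS1 and MRN1 were identical at 75.9% of aligned positions, those of CYP705A5 and CYP705A12 at 71.3% and those of AT5G47980 and AT5G47950 at 55.3%. By local instead of end-to-end alignment, the closest gene outside the clusters was BARS1 for THAS1 (84.6%), CYP705A30 for CYP705A5 (81.6%) and CYP708A3 for CYP708A2 (72.3%). None of the 8 coding sequences shared a stretch of 50 bases with any of the others in the annotation. BARS1, a cyclase that makes baruol, was at 0 in all 6 libraries.

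AT5G47950 departed from the other thalianol genes in its replicates. Replicate 1 was 2.58 times replicate 2 in Pro35SARR1, 1.40 times in the libraries labelled arr1 and 2.79 times in WT. For AT5G47980 the same ratio lay between 0.892 and 1.04. Across the 6 libraries, the log2 levels of AT5G47980, CYP705A5, CYP708A2 and THAS1 had Pearson's r of 0.971 to 0.995 with one another, and AT5G47950 had 0.606 to 0.777 with them. These coefficients come from 6 points that fall into 3 genotypes and are given as a description.

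Some endodermis markers differed between replicates in the same libraries. CASP1, a protein of the Casparian strip of the endodermis, had 16.3 and 2.65 FPKM in Pro35SARR1, 12.6 and 11.03 FPKM in the libraries labelled arr1, and 33.1 and 3.55 FPKM in WT. The summed FPKM of the 8 endodermis markers was 99.85 and 62.2 in Pro35SARR1, 93.5 and 86.2 in the libraries labelled arr1, and 137 and 70.7 in WT. Of the 8 markers, 6 were higher in replicate 1 in Pro35SARR1, 7 in the libraries labelled arr1 and 7 in WT. SHR, a regulator of ground tissue identity, ran the other way in 2 genotypes, with 22.4 and 27.2 FPKM in Pro35SARR1, 26.1 and 23.4 FPKM in the libraries labelled arr1, and 22.6 and 26.9 FPKM in WT. CASP1 and MYB36 carried most of the difference in the sum in Pro35SARR1 and in WT, and the other 6 markers summed to 39.6 and 37.9 FPKM in Pro35SARR1, 51.7 and 47.6 FPKM in the libraries labelled arr1, and 51.1 and 38.3 FPKM in WT. AT4G15390, the closest relative of AT5G47950 (69.1% of coding positions identical), had 11.4 and 2.97 FPKM in Pro35SARR1, 8.59 and 7.30 FPKM in the libraries labelled arr1, and 26.9 and 6.86 FPKM in WT. CASP1, the sum of the 8 markers and AT4G15390 were higher in replicate 1 of Pro35SARR1 and of WT and closer together in the libraries labelled arr1. CYP708A3, the closest relative of CYP708A2, was lower in replicate 1 of every genotype. It had 19.4 and 64.3 FPKM in Pro35SARR1, 23.1 and 28.8 FPKM in the libraries labelled arr1, and 16.9 and 82.3 FPKM in WT. The part of endodermal cells in the level of AT5G47950 was not tested.

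The marneral cluster was barely transcribed in these explants. MRN1, the synthase, was listed at 0 in both Pro35SARR1 libraries and in both libraries labelled arr1, and at 0.0943 and 0.124 FPKM in WT, which stand for 2 and 3 fragments. At a floor of 3 counts no fold can be given, and a count of 0 allows up to 3 counts in a library by counting error alone. CYP705A12 had 4 fragments in each Pro35SARR1 library, 2 and 1 in the libraries labelled arr1, and 4 and 3 in WT. Neither gene had enough counts to be tested.

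CYP71A16 was the only marneral gene tested. It had 1.21 and 1.40 FPKM in Pro35SARR1, 0.917 and 9.3e-05 FPKM in the libraries labelled arr1, and 2.29 and 0.941 FPKM in WT. The difference between the 2 WT libraries was larger than that between their mean and the mean of Pro35SARR1. Its log2 fold change was -0.28 in Pro35SARR1 against WT (SE 1.10, edgeR adjusted p 0.962) and -1.75 in the libraries labelled arr1 against WT (SE 1.20). The first was 0.50 without WT replicate 1, so its sign is not fixed at this depth. Whether the marneral genes follow the thalianol genes was not detectable at this depth.

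**Figure D4:**
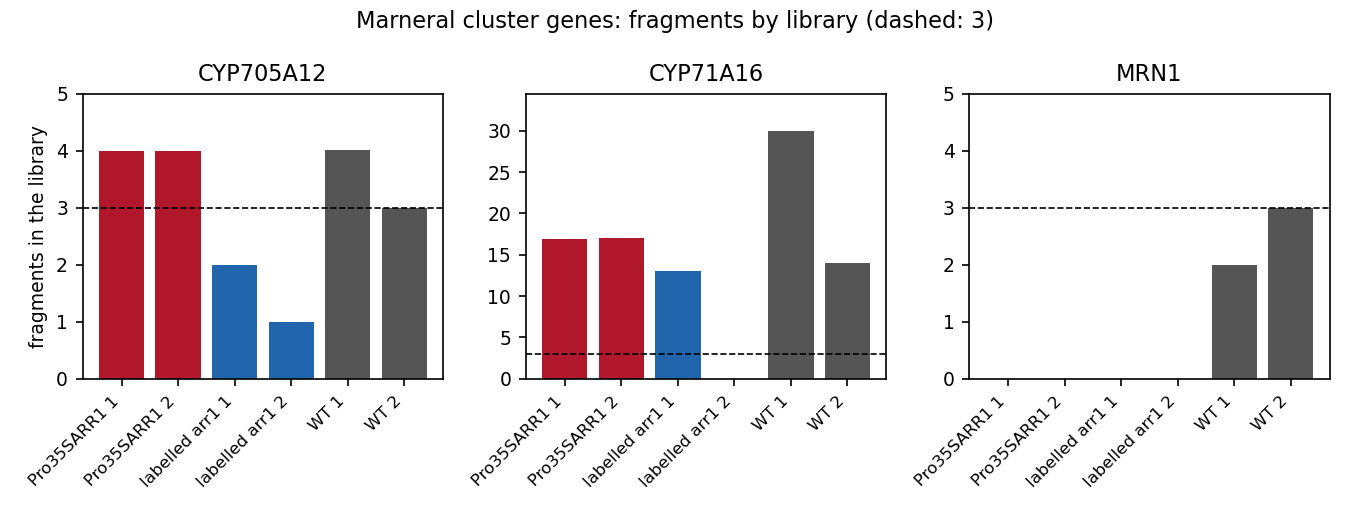
Sequenced fragments of CYP705A12, CYP71A16 and MRN1 in each library, with a dashed line at 3. MRN1 has 2 and 3 fragments in WT and 0 elsewhere, CYP705A12 has at most 4, and CYP71A16 ranges from 0 in labelled arr1 replicate 2 to 30 in WT replicate 1.

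The genes around the thalianol cluster were measured as well as its members. Of its 12 neighbours (5 on each side and 2 between members) 10 were tested, and edgeR called 0 in any of the 3 comparisons, also with the block. DESeq2 and limma called 0 too, and at an unadjusted edgeR p under 0.05 there was 1 lower gene in Pro35SARR1 against WT. In the libraries labelled arr1 against WT there was 1 in each direction at that p (9.63% of all genes were higher and 12.4% lower), and in Pro35SARR1 against the libraries labelled arr1 there were 2 higher ones (13.9% of all genes). RABA4C, a small GTPase gene inside the cluster's span, had 19.9 and 24.0 FPKM in Pro35SARR1, 14.2 and 15.6 FPKM in the libraries labelled arr1, and 15.5 and 18.1 FPKM in WT. AT5G48020, next to THAS1, had 49.1 and 48.5 FPKM in Pro35SARR1, 39.7 and 32.7 FPKM in the libraries labelled arr1, and 45.2 and 47.9 FPKM in WT. Its log2 fold change was -0.33 in the libraries labelled arr1 against WT, where that of THAS1 was -1.37. Over the 10 neighbours the smallest edgeR adjusted p was 0.479 in Pro35SARR1 against WT and 0.211 in the libraries labelled arr1 against WT.

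Around the marneral cluster 5 of 11 neighbours were at 0 in all libraries and 6 were tested, and edgeR without the block called 0 in each comparison. The unadjusted edgeR p was under 0.05 for 0 genes in Pro35SARR1 against WT. It was so for 2 higher genes and 1 lower gene in the libraries labelled arr1 against WT, and DESeq2 called 0 in both. With the block, the libraries labelled arr1 against WT gave 1 higher gene (XRN2, log2 fold change 0.46, edgeR adjusted p 0.113; 0.0310 with the block) and 1 lower gene (AT5G42530, -0.97, edgeR adjusted p 0.215; 0.0482 with the block). In Pro35SARR1 against the libraries labelled arr1, AT5G42530 was called higher with the block (log2 fold change 1.34, edgeR adjusted p 0.0974; 0.0135 with the block) and by DESeq2 (adjusted p 0.0244; 6.56% of all genes), and the unadjusted edgeR p was under 0.05 for 1 higher and 2 lower genes (11.4% of all genes were lower). AT5G42530 and XRN2 were named after their values were seen, and neither adjoins a marneral gene.

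Thalianol metabolism is also known to need a reductase step outside the cluster. SDR4 (AT3G29250), a short-chain dehydrogenase gene on chromosome 3 known from the thalianol pathway, had 149 and 160 FPKM in Pro35SARR1. It had 4.04 and 11.8 FPKM in the libraries labelled arr1, against 56.0 and 39.7 FPKM in WT. The 3 genotypes were in the order of the cluster genes, without overlap. SDR4 was listed with earlier results of these data known, so its p-values are not independent of the choice. The log2 fold change was -2.57 in the libraries labelled arr1 against WT (SE 0.44, edgeR adjusted p 0.0481, or 0.0142 with the block). In Pro35SARR1 against WT it was 1.71 (SE 0.39, edgeR adjusted p 0.275, or 0.0649 with the block, DESeq2 adjusted p 0.00468). In Pro35SARR1 against the libraries labelled arr1 it was 4.28 (SE 0.46, edgeR adjusted p 0.0143, or 0.00277 with the block).

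The SDR4 difference between the libraries labelled arr1 and WT kept its direction and most of its size when 1 library was left out, with log2 fold changes from -3.52 to -2.01. Leaving out any 1 of the 6 raised its edgeR adjusted p to between 0.0954 and 0.171, and it was 0.0582 with library totals as the only scaling. AT1G66800, a related reductase gene of the same pathway, had 30.6 and 30.1 FPKM in Pro35SARR1, 37.4 and 32.9 FPKM in the libraries labelled arr1, and 44.7 FPKM in both WT libraries. It was not called in any comparison, with edgeR adjusted p of 0.246 in Pro35SARR1 against WT and 0.201 in the libraries labelled arr1 against WT. Of the 2 reductase genes, SDR4 had its highest values in Pro35SARR1 and AT1G66800 had its highest values in WT.

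**Figure D5:**
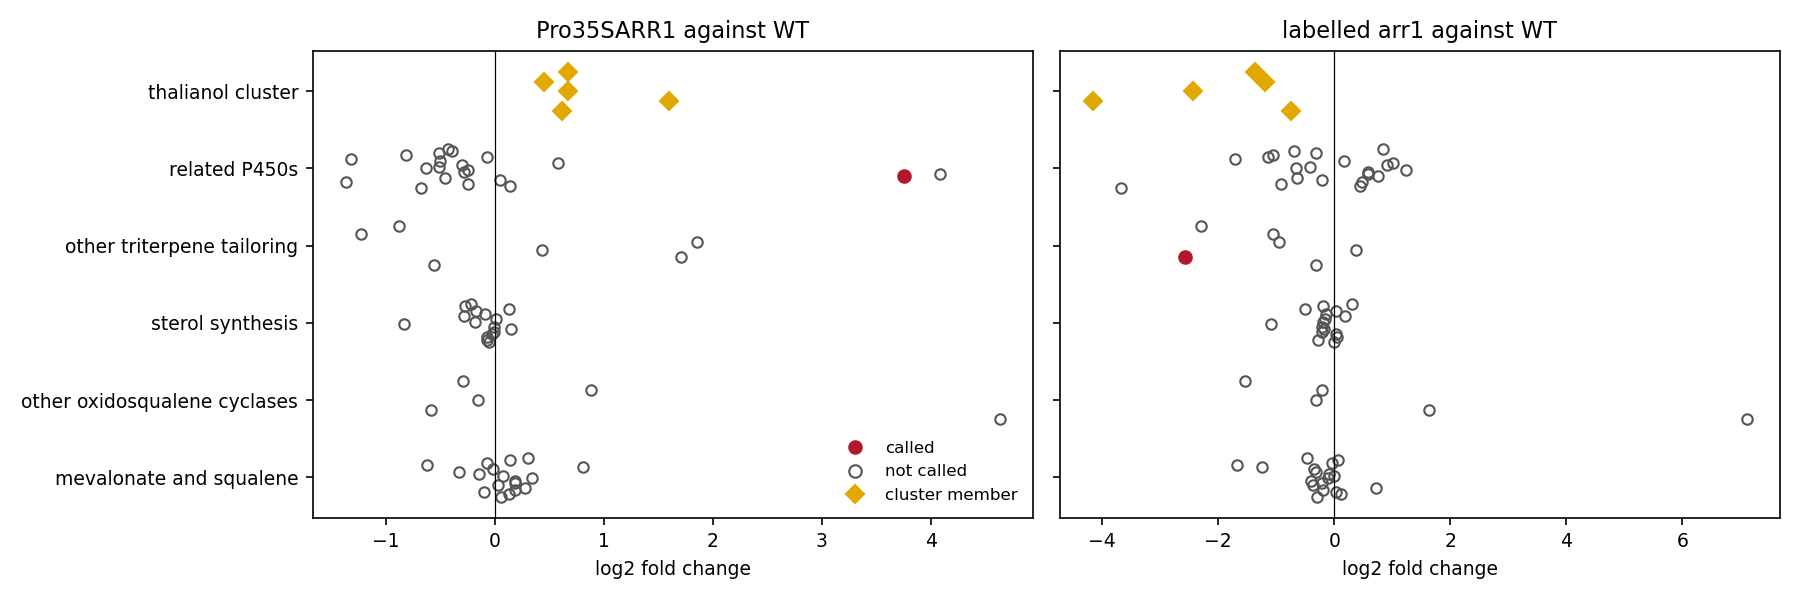
Log2 fold change (edgeR) of every tested gene of 5 related gene groups in Pro35SARR1 against WT (left) and in the libraries labelled arr1 against WT (right), with the thalianol genes as diamonds; filled circles are genes called at an adjusted p under 0.05 without the block. The only genes so called among the related groups are CYP71A12 (3.76) on the left and SDR4 (-2.57) on the right.

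Few of the genes that supply oxidosqualene passed the adjusted edgeR test without the block. Of 20 genes of the mevalonate pathway and squalene synthesis 18 were tested, and edgeR called 0 in Pro35SARR1 against WT (median log2 fold change 0.11) and 0 in the libraries labelled arr1 against WT (median -0.21), where all genes had medians of -0.0027 and -0.0020. Of the 18, 14 were below 0 in the libraries labelled arr1 against WT, as were 50.23% of all genes. At an unadjusted edgeR p under 0.05, 1 gene was higher in Pro35SARR1 and 5 were lower in the libraries labelled arr1 (12.4% of all genes). With the block 4 were called lower in the libraries labelled arr1 (AACT2, MVD1, IPP1 and SQE6; 9.51% of all genes). DESeq2 called 0 in Pro35SARR1 and 1 lower in the libraries labelled arr1 (5.05% of all genes). In Pro35SARR1 against the libraries labelled arr1, the unadjusted edgeR p was under 0.05 for 10 higher and 0 lower genes (13.9% and 11.4% of all genes). By adjusted p, 1 gene was called higher there, or 7 with the block (4.09% and 11.5% of all genes). That gene was AACT2 (AT5G48230), an acetoacetyl-CoA thiolase at the entry of the mevalonate pathway, named here after its values were seen, with 88.2 and 104 FPKM in Pro35SARR1 and 52.9 and 57.2 FPKM in the libraries labelled arr1 (log2 fold change 0.78, edgeR adjusted p 0.0294). Its edgeR adjusted p was 0.109 to 0.196 when any 1 of these 4 libraries was left out.

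CAS1, the cyclase that starts sterol synthesis from the same substrate, had 87.1 and 83.3 FPKM in Pro35SARR1, 40.5 and 38.7 FPKM in the libraries labelled arr1, and 49.8 and 42.9 FPKM in WT. It was higher in Pro35SARR1 than in the libraries labelled arr1 (log2 fold change 1.08, SE 0.11, edgeR adjusted p 0.0139). Against WT its log2 fold change of 0.88 passed only with the block among the edgeR fits (adjusted p 0.126; 0.0237 with the block), and DESeq2 called it as well. Leaving out either library of Pro35SARR1 or either library labelled arr1 ended its call against the libraries labelled arr1 (adjusted p 0.0682 to 0.145).

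LUP2, which makes mixed triterpene alcohols, had 4.86 and 3.39 FPKM in Pro35SARR1, 25.8 and 11.95 FPKM in the libraries labelled arr1, and 6.82 and 5.57 FPKM in WT. Its level was lower in Pro35SARR1 than in the libraries labelled arr1 (log2 fold change -2.21, SE 0.41, edgeR adjusted p 0.0410; 2.38% of all genes were called lower), a call that was lost without any 1 of the 6 libraries (adjusted p 0.0556 to 0.158). Of the 10 other cyclase genes 5 were tested and 6 stayed under 1 FPKM in every library. In comparison with WT edgeR called 0 of them without the block. LUP2 was called higher in the libraries labelled arr1 than in WT with the block (log2 fold change 1.63, SE 0.40, edgeR adjusted p 0.0926; 0.0103 with the block; 6.23% of all genes) and by DESeq2 (adjusted p 0.00528; 2.72% of all genes). In Pro35SARR1 against WT the block and DESeq2 each called 1 higher, which was CAS1. The unadjusted edgeR p was under 0.05 for 1 higher gene in Pro35SARR1 against WT and for 2 in the libraries labelled arr1 against WT.

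Sterol synthesis after CAS1 was represented by 16 genes, all tested, of which edgeR called 0 in both comparisons with WT. Their median log2 fold change was -0.071 in Pro35SARR1 against WT and -0.17 in the libraries labelled arr1 against WT. In Pro35SARR1 against WT DESeq2 called 0 and the unadjusted edgeR p was under 0.05 for 2 lower genes. In the libraries labelled arr1 against WT DESeq2 called 1 lower and the unadjusted p was under 0.05 for 1. With the block 1 gene was called lower (0.89% of all genes in Pro35SARR1) in each of these comparisons, CYP710A2, a P450 gene of stigmasterol synthesis named after its values were seen, with 11.2 and 16.4 FPKM in Pro35SARR1, 10.09 and 12.7 FPKM in the libraries labelled arr1, and 21.3 and 27.8 FPKM in WT.

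Tailoring genes beside other cyclases, with the 2 reductases, numbered 11, of which 6 were tested. In Pro35SARR1 against WT edgeR called 0, DESeq2 called 1 higher, and the unadjusted edgeR p was under 0.05 for 1 higher and 1 lower gene. SDR4 was the 1 gene called in the libraries labelled arr1. Of 32 related P450 genes that were measured, 21 had enough counts for a test, and their median log2 fold change was -0.39 in Pro35SARR1 against WT and -0.20 in the libraries labelled arr1 against WT. CYP71A12, a P450 of camalexin synthesis, was the 1 called in a comparison with WT by edgeR without the block, with 14.1 and 15.1 FPKM in Pro35SARR1 and 1.22 and 0.941 FPKM in WT (log2 fold change 3.76, SE 0.24, edgeR adjusted p 0.0188). Its adjusted p was 0.103 to 0.174 with any 1 library left out. With the block, CYP705A19 and CYP708A4, named after their values were seen, were called lower in both comparisons with WT. CYP705A19 had 32.3 and 36.4 FPKM in Pro35SARR1, 28.2 and 37.7 FPKM in the libraries labelled arr1, and 50.1 and 56.3 FPKM in WT, and its adjusted p with the block was 0.0475 in Pro35SARR1 and 0.0130 in the libraries labelled arr1. CYP708A4 had 14.3 and 9.96 FPKM in Pro35SARR1, 12.2 and 6.01 FPKM in the libraries labelled arr1, and 40.3 and 20.6 FPKM in WT, with adjusted p of 0.0322 and 0.00489 in the same 2 comparisons. In the libraries labelled arr1 against WT edgeR without the block called 0 of the P450 genes, DESeq2 called these 2 lower, and the unadjusted p was under 0.05 for 2 higher and 4 lower genes.

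Chromatin genes were included because both clusters are known targets of Polycomb-type marking and of the histone variant H2A.Z. All 14 were tested and edgeR called 0 in both comparisons with WT. Their median log2 fold change was 0.091 in Pro35SARR1 against WT and 0.39 in the libraries labelled arr1 against WT, where 1 of 14 was below 0, as were 50.23% of all genes tested. At an unadjusted edgeR p under 0.05 there were 0 genes in Pro35SARR1 against WT and 7 higher in the libraries labelled arr1 against WT (9.63% of all genes), of which DESeq2 called 0. With the block 2 were called higher, REF6 and ULT1 (6.23% of all genes).

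Cell type markers differed between the same genotypes, and in bulk RNA fewer cells of a type and less RNA per cell cannot be told apart. Of 6 shoot and leaf markers edgeR called 5 higher in the libraries labelled arr1 than in WT: STM, FIL, YAB3, ATML1 and PDF1 (1.09% of all genes were called higher). Their summed FPKM was 33.9 and 48.9 in Pro35SARR1, 494 and 547 in the libraries labelled arr1, and 22.5 and 47.5 in WT. The largest log2 fold change was that of YAB3, a leaf polarity gene, at 5.47 (SE 0.36, edgeR adjusted p 0.0128). These markers and the root markers were listed with earlier results of these data known, so their p-values are not independent of the choice. The number of shoot markers called was 0 to 4 with 1 library left out, and for YAB3 the call was lost without either library labelled arr1 (adjusted p up to 0.166). CAB1, a light-harvesting gene and the remaining shoot marker, had 1202 and 1952 FPKM in Pro35SARR1, 2593 and 2302 FPKM in the libraries labelled arr1, and 2391 and 3082 FPKM in WT.

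The root marker lists differed in their order of genotypes. The 7 root cap and root tip markers summed to 1.99 FPKM in both Pro35SARR1 libraries, 14.9 and 13.6 FPKM in the libraries labelled arr1, and 5.42 and 2.78 FPKM in WT. PIN2, an auxin carrier of the root tip, was called higher in the libraries labelled arr1 than in WT (log2 fold change 2.62, SE 0.23, edgeR adjusted p 0.0219). The 7 root epidermis and root hair markers summed to 29.1 and 87.9 FPKM in Pro35SARR1, 12.2 and 23.8 FPKM in the libraries labelled arr1, and 16.7 and 36.8 FPKM in WT. Of these GL2, a regulator of epidermal cells in root and shoot, was called higher in the libraries labelled arr1 than in WT (log2 fold change 4.33, SE 0.60, edgeR adjusted p 0.0361). Leaving out any 1 of the 6 libraries ended both calls, with adjusted p of 0.0544 to 0.199 for PIN2 and 0.0791 to 0.271 for GL2. With the block, RHD2, an oxidase gene of root hair growth, was called lower in the libraries labelled arr1 than in WT (log2 fold change -1.08, edgeR adjusted p 0.128; 0.00742 with the block; 9.51% of all genes). No endodermis marker was called against WT by edgeR without the block or by DESeq2. With the block SCR, a regulator of ground tissue patterning, was called higher in the libraries labelled arr1 than in WT (log2 fold change 0.68, edgeR adjusted p 0.113; 0.0149 with the block; 6.23% of all genes). Its list leaned the other way in that comparison, with 4 of the 6 endodermis markers tested below 0 (median log2 fold change -0.40). The unadjusted edgeR p was under 0.05 for 0 in Pro35SARR1 and for 1 in the libraries labelled arr1. No member of the 3 root lists was at 0 in all 6 libraries, while 5 of the 7 root cap markers stayed under 1 FPKM in each of them. The part of these cell types in the cluster genes' levels was not tested.

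Some genes outside the clusters followed the thalianol profile closely across the 6 libraries. Among 14837 genes with a mean of at least 5 CPM, the highest Pearson's r with the mean scaled profile of the 5 thalianol genes over the 6 libraries belonged to NSP4 (r = 0.999), EMB1144 (0.999), MT2A (0.998), AT3G57280 (0.997) and ABCI20 (0.997). NSP4, a nitrile-specifier protein of glucosinolate breakdown, had 80.3 and 60.3 FPKM in Pro35SARR1, 15.5 and 13.9 FPKM in the libraries labelled arr1, and 53.6 and 36.8 FPKM in WT. MT2A, a metallothionein, had 3924 and 3341 FPKM in Pro35SARR1, 1011 and 881.5 FPKM in the libraries labelled arr1, and 2720 and 2078 FPKM in WT. These genes were picked for their likeness out of many, so the coefficients are a description.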

How the data were processed

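Per the file headers, the deposited table lists 35593 isoforms of 26726 genes, each with an FPKM and an estimated count per library. CASAVA and DESeq appear in the submitters' processing notes. Not given in the sources used here are the aligner, the quantifier, the build and whether strand was used. The estimated counts deposited by the authors are mostly whole multiples of a library-specific step (92.07% to 93.13% of values under 10 within 0.02, steps 0.855 to 1.152), and dividing by it gives fragments. For arr1 against WT the authors also deposited an adjusted p-value and a log2 fold change per gene, beside a column of counts that was taken as a score. No column of samples outside the labels was present (0).

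Isoform counts were summed per gene, rounded, filtered with filterByExpr, scaled by TMM and tested with edgeR 4.0.16 in R 4.3.3 (quasi-likelihood F test, 1 mean per genotype, all 6 libraries, 18083 genes, 3 residual degrees of freedom, biological coefficient of variation 0.214, Benjamini-Hochberg 0.05). SE is the log2 fold change over the square root of F. DESeq2 1.42.0, limma 3.58.1 on log2(FPKM + 1) and log2(FPKM + 0.1), other scaling and filtering, fragments (added after seeing the data), a replicate block and leaving out each library were alternatives. Same-numbered libraries deviated together from their genotype means over 18083 genes (Pearson's r 0.320 for WT and arr1, 0.550 for WT and Pro35SARR1, 0.324 for arr1 and Pro35SARR1); the labels give the numbers and no shared batch or day. The fit was tested on simulated data.

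The members and all gene lists were chosen with earlier results of these data known, so p-values of list genes are not independent of the choice. Named genes were all members, cyclases and other tailoring genes in ranges, 5 neighbours on each side and the 5 most alike genes. Of the genes called in comparisons with WT, up to 4 per list were named, and 5 in the shoot list. Upstream sequences, coding sequences and gene products come from RefSeq TAIR10.1, where 97.4% of 25939 matched genes start within 500 bp of the deposited start. Identities between members are from end-to-end alignments (Biopython 1.88), with gaps counted in the length. Identities with the closest gene are from local alignments (BLAST 2.17.0). Close paralogs may share reads. Counting floors of 3 cover counting error only. List genes named only for a call with the replicate block were named after their values were seen.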

Additional observations from a re-analysis of the deposited data

How the results depend on the processing

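The count of members called in Pro35SARR1 against WT was 1, and it was 4 with the replicate block, 2 with DESeq2 and 0 with limma on log2(FPKM + 0.1). It was 0 in every fit without 1 library. The members called in the libraries labelled arr1 against WT numbered 4, 3 with library totals alone or with no filter on low counts, and 0 to 2 without 1 library. In Pro35SARR1 against the libraries labelled arr1 they numbered 4, 5 with the block and 2 to 4 without 1 library. The libraries labelled arr1 also entered the choice of members, so nothing is read from the counts in the comparisons that hold them. Leaving 1 library out leaves a lone sample in its genotype, which is assumed to vary like the other groups, so fewer samples enter the spread. Direction turned in 3 of 234 refits of single members: AT5G47950 in the libraries labelled arr1 against WT was 0.16 without WT replicate 1 (-1.32 to 0.16 over the 6 libraries left out), AT5G47950 in Pro35SARR1 against WT was -0.25 without Pro35SARR1 replicate 1 (-0.25 to 1.54), and CYP71A16 in Pro35SARR1 against WT was 0.50 without WT replicate 1 (-0.79 to 0.50). The pairing by replicate number moved no other direction of a member. Over all genes the block raised the calls in Pro35SARR1 against WT to 214 higher and 161 lower, where the fit without it called 16 and 0 (DESeq2 197 and 82; unadjusted p under 0.05 for 890 and 872). Scaling by library totals alone shifted the median log2 fold change of the libraries labelled arr1 against WT by 0.127, and called 218 genes higher and 128 lower where TMM called 198 and 343. In Pro35SARR1 against the libraries labelled arr1 the totals gave 503 higher and 574 lower, and TMM 739 and 431. The depth limits the marneral genes, of which MRN1 and CYP705A12 had at most 4 fragments in a library.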
